A study of Mus musculus with 6 samples.

Results

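The 10 genes described here encode chains of the fibrillar collagens I, III and V (Col1a1, Col1a2, Col3a1, Col5a1 and Col5a2) and of the collagens that lie on or between those fibrils, types VI, XII and XIV (Col6a1, Col6a2, Col6a3, Col12a1 and Col14a1). They are defined by their symbols, and no measured value enters that definition, although results of these data were known when they were chosen. All 10 were among the 15663 genes listed in the RNA-seq tables of mouse RPE-choroid, and all 10 passed the filter on low counts (more than 50 counts in at least 2 libraries), which 13454 genes passed. The tissue joins the RPE (retinal pigment epithelium), a sheet of pigmented cells that faces the photoreceptors, to the blood-vessel layer beneath it, the choroid. The 3 SRF (subretinal fibrosis) mice had 4 laser burns in each eye and, 10 days later, a second burn on every lesion. Their tissue was taken 20 days after that second laser. The 3 control mice were untreated. All were C57BL/6 males (C57BL/6J in the methods) of 8 to 10 weeks, and no transgene or drug treatment is named for either group. In the methods this is the age at which mice were provided, so SRF mice were older when their tissue was taken. The laser was given under pentobarbital anaesthesia with the pupils dilated by tropicamide and phenylephrine. The burns are focal, so an SRF library holds lesion together with unlesioned tissue. In such bulk RNA, fewer cells of a type cannot be told apart from less RNA per cell. How many eyes went into a library is not given in the sources used here.

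A collagen is a helix of chains in which glycine recurs at the start of each Gly-X-Y triplet, the only residue small enough for the core of the helix. Type I collagen, built from the Col1a1 and Col1a2 chains, is the main fibre of scar and sclera, and type III (Col3a1) is laid down with it in healing tissue. Type V chains start new fibrils and limit their width. Type VI forms beaded microfibrils around cells, and types XII and XIV bind the surface of type I fibrils. In neovascular macular degeneration a scar of such fibres can replace the lesion under the retina. The comparison of SRF with control asked whether the RNA for these chains differed in the fibrosis model.

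The members differ in how long their coding sequence keeps the Gly-X-Y pattern without a break, which is not the length of the whole helix. The first 45 bases of the longest uninterrupted run of Gly-X-Y codons are given for a type I, a type III, a type VI and a type XII chain. They are read 5′ to 3′ on the coding strand of the longest coding transcript in GENCODE M21. Capitals mark the glycine codon that opens each triplet. A glycine codon at another place of a triplet, as in Col3a1 (gga and ggt), is in lower case.

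Col1a1: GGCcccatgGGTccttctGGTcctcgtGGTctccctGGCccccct

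Col3a1: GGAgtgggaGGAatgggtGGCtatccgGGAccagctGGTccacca

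Col6a1: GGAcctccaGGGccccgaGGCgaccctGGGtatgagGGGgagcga

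Col12a1: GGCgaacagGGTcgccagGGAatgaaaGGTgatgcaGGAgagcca

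In Col1a1 this run went on for 338 triplets and made up 69.8% of all codons. Col1a2 (339), Col3a1 (344), Col5a1 (338) and Col5a2 (339) had runs of nearly the same length, as fibril-forming chains do. Col6a1 and Col6a2 had 87 triplets each and Col6a3 had 45. Col12a1 and Col14a1 had 32 each, which was 3.13% of the 3065 codons of Col12a1, the longest chain of the 10.

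Gene positions were looked up in the GENCODE M21 annotation of GRCm38, which held 15659 of the 15663 identifiers. Col3a1 (ENSMUSG00000026043, chr1:45311538-45349706, plus strand) and Col5a2 (ENSMUSG00000026042, chr1:45374321-45503282, minus strand) point towards each other, with 24.6 kb between their 3′ ends. Col6a2 (chr10:76595762-76623630) and Col6a1 (chr10:76708792-76726168) follow one another on the minus strand. Col1a1 (chr11:94936224-94953042, plus strand) and Col1a2 (chr6:4504814-4541544, plus strand) lie on different chromosomes. Col6a3 (chr1:90765923-90843971, minus strand), Col5a1 (chr2:27886425-28039514, plus strand), Col12a1 (chr9:79598991-79718831, minus strand) and Col14a1 (chr15:55307750-55520803, plus strand) lie apart from the others. The gene spans of Col5a1, Col12a1 and Col14a1 hold annotated transcripts on the opposite strand. The strandedness of the libraries is not given in the sources used here, so reads of those transcripts could not be told apart from reads of the collagen gene.

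The libraries differed in ways that the groups do not explain. The part of these differences in the collagen values was not tested. Counts on genes summed to between 13667310 and 24356023 per library. RPE markers were present in all 6 libraries (summed level 32343 to 55585 CPM over 12 genes), as were endothelial markers (1917 to 2530 CPM over 12 genes). No listed gene was at 0 in any library, which may only reflect which genes were listed. CPM here is a gene's count scaled to a common library size after TMM normalization. The 15 photoreceptor markers summed to 13809 CPM in control mouse 1 and 13384 CPM in SRF mouse 3, against 779 to 1909 CPM in the other libraries. Markers of skeletal muscle (1044 to 3790 CPM over 11 genes) and of cornea and surface epithelium (227 to 2457 CPM over 8 genes) also varied, and they are not tissues the label names. The members are given below also without the photoreceptor-rich pair of mice.

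All 10 collagen genes had a log2 fold change above 0 (SRF minus control throughout), where 50.3% of all tested genes did. Their median was 0.50, beside 0.00 over all tested genes, and they ran from 0.20 in Col6a3 to 0.78 in Col12a1. 5 of the 10 reached 0.5, a size that 5.42% of tested genes reached, and all 10 reached 0.2, as 19.8% did. None was called by edgeR's quasi-likelihood test under the criteria of the study (Benjamini-Hochberg adjusted p under 0.05, log2 fold change 0.5 or more in size). The lowest adjusted p of a member was 0.54. That test called 0% of the 13454 genes in either direction, while 943 genes had an unadjusted p under 0.05. DESeq2, the tool the study used, called 153 genes, of which 108 were higher in SRF (0.803% of those tested), and again no member. At an unadjusted p under 0.05 in edgeR, 3 members were higher in SRF, against 4.16% of tested genes. The same 3 (Col3a1, Col5a2 and Col14a1) were those in which every SRF mouse lay above every control mouse, as 6.71% of tested genes did. The members rose and fell together in large part from library to library, so these counts are not 10 separate observations. They parted most in control mouse 3 and SRF mouse 3. Relative to each gene's mean log2 CPM over the 6 libraries, control mouse 3 ran from -0.32 (Col3a1) to 0.77 (Col12a1). SRF mouse 3 ran from -0.22 (Col5a1) to 1.13 (Col12a1).

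**Figure D1:**
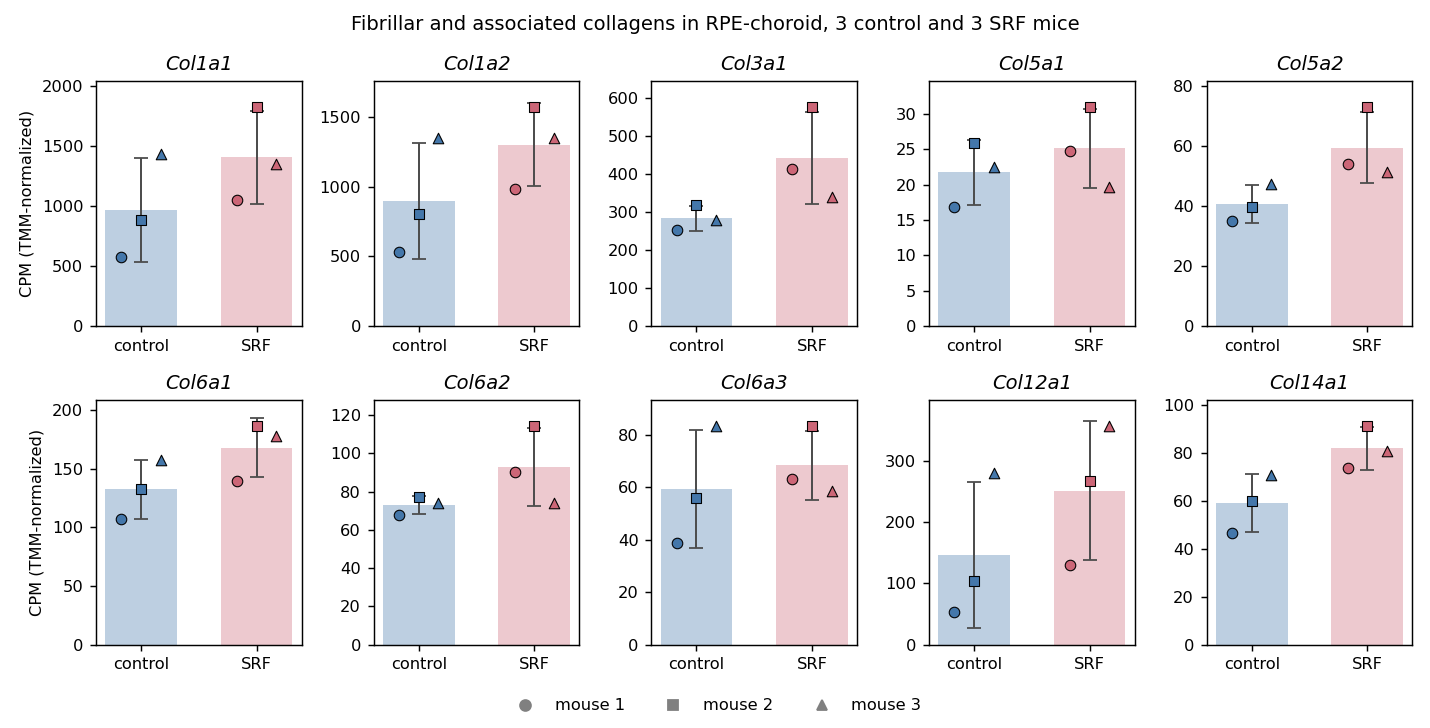
Level of each collagen gene in CPM (TMM-normalized, linear axes from 0) in control and SRF mice. Points are single mice, bars are means and error bars are SDs over 3 mice. The sources used here describe no pairing of same-numbered control and SRF mice. Col3a1, Col5a2 and Col14a1 have all SRF points above all control points, and control mouse 1 is the lowest point in every panel.

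Type I collagen was the most abundant. Col1a1 was at 577, 886 and 1437 CPM in control mice 1, 2 and 3 and at 1053, 1822 and 1346 CPM in SRF mice 1, 2 and 3. Col1a2 was at 535, 807 and 1350 CPM in control mice and at 982, 1571 and 1353 CPM in SRF mice. In both genes control mouse 3 lay within the SRF range, and the highest control was about 2.5 times the lowest (2.49 in Col1a1 and 2.52 in Col1a2). The mean of Col1a1 was 967 ± 436 CPM in control and 1407 ± 388 CPM in SRF (SD, n = 3), 1.46-fold higher. Its log2 fold change was 0.54 with a standard error of 0.35 and a 95% interval from -0.28 to 1.37 (edgeR adjusted p = 0.88). Col1a2 had a log2 fold change of 0.54 with a standard error of 0.34 (edgeR adjusted p = 0.88). Without control mouse 1 the log2 fold changes were 0.28 in Col1a1 and 0.27 in Col1a2, and without control mouse 3 they were 0.94 and 0.96. Neither gene passed the test, in a fit that called 0% of tested genes. The part of the spread among control mice in this was not tested.

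Type III collagen differed most relative to its spread. Col3a1 was at 253, 319 and 280 CPM in control mice and at 413, 577 and 341 CPM in SRF mice. The groups did not overlap, although SRF mouse 3 was only a little above control mouse 2. The mean went from 284 ± 33.4 CPM in control to 443 ± 121 CPM in SRF (SD, n = 3), 1.56-fold higher. The log2 fold change was 0.64 with a standard error of 0.21 and a 95% interval from 0.15 to 1.14. It did not pass the correction over all genes, with an adjusted p of 0.54 in edgeR and 0.14 in DESeq2. With SRF mouse 3 left out, DESeq2 called it (log2 fold change 0.79, adjusted p = 0.0038), in a fit that called 1.66% of genes higher in SRF. Without both control mouse 1 and SRF mouse 3, the mice richest in photoreceptor RNA, its log2 fold change was 0.72 (adjusted p = 0.096 with edgeR and 0.0038 with DESeq2, which then called 2.3% of genes higher in SRF). No fit of edgeR, with or without any mouse, called it.

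Of the type V chains, Col5a2 was at 35.0, 39.6 and 47.4 CPM in control mice and at 54.0, 72.9 and 51.4 CPM in SRF mice, with no overlap. Its log2 fold change was 0.55 with a standard error of 0.18 (edgeR adjusted p = 0.56), a 1.46-fold difference. Col5a1 was at 16.8, 25.9 and 22.6 CPM in control mice and at 24.8, 31 and 19.7 CPM in SRF mice. SRF mouse 3 lay below 2 of the controls, and the log2 fold change was 0.21 with a standard error of 0.22 (edgeR adjusted p = 0.98). Whether the type V chains differ in their response was tested only through their ratio, given further on.

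Of the type VI chains, Col6a1 was at 107, 133 and 158 CPM in control mice and at 140, 187 and 178 CPM in SRF mice. Col6a2 was at 67.9, 77.1 and 74.1 CPM in control mice and at 90.2, 114 and 73.9 CPM in SRF mice. The log2 fold changes of these neighbours on chromosome 10 were 0.34 (standard error 0.18, edgeR adjusted p = 0.81) and 0.35 (standard error 0.17, edgeR adjusted p = 0.78). In Col6a1 control mouse 3 lay above SRF mouse 1, and in Col6a2 SRF mouse 3 lay at the level of control mouse 3. Col6a3, which encodes the longest of the 3 type VI chains, was at 38.9, 55.9 and 83.6 CPM in control mice and at 63.3, 83.3 and 58.6 CPM in SRF mice. Control mouse 3 was the highest of all 6 mice, and the other controls lay below every SRF mouse. Its log2 fold change of 0.20 (standard error 0.28, edgeR adjusted p = 1.0) changed sign to -0.03 without control mouse 1.

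The fibril-surface collagens XII and XIV had the widest and one of the narrowest spreads. Col12a1 was at 53.1, 104 and 280 CPM in control mice and at 130, 266 and 357 CPM in SRF mice. Control mice alone covered a 5.27-fold range, the largest of the 10 genes, and control mouse 3 was above 2 of the SRF mice. The log2 fold change of 0.78 was the largest of the members and had the largest standard error, 0.62, with a 95% interval from -0.68 to 2.25 (edgeR adjusted p = 0.94). It was 1.68 without control mouse 3, and there DESeq2 called Col12a1 (adjusted p = 0.022) and Col1a2 (adjusted p = 0.043) in a fit that called 1.01% of genes higher in SRF. It was 0.04 without control mouse 1 and SRF mouse 3 together. Col14a1 was at 46.6, 60.1 and 70.9 CPM in control mice and at 73.6, 91.4 and 80.8 CPM in SRF mice. These groups did not overlap, but only by a gap of a few CPM between control mouse 3 and SRF mouse 1. Its log2 fold change was 0.47 with a standard error of 0.18 (edgeR adjusted p = 0.63).

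**Figure D2:**
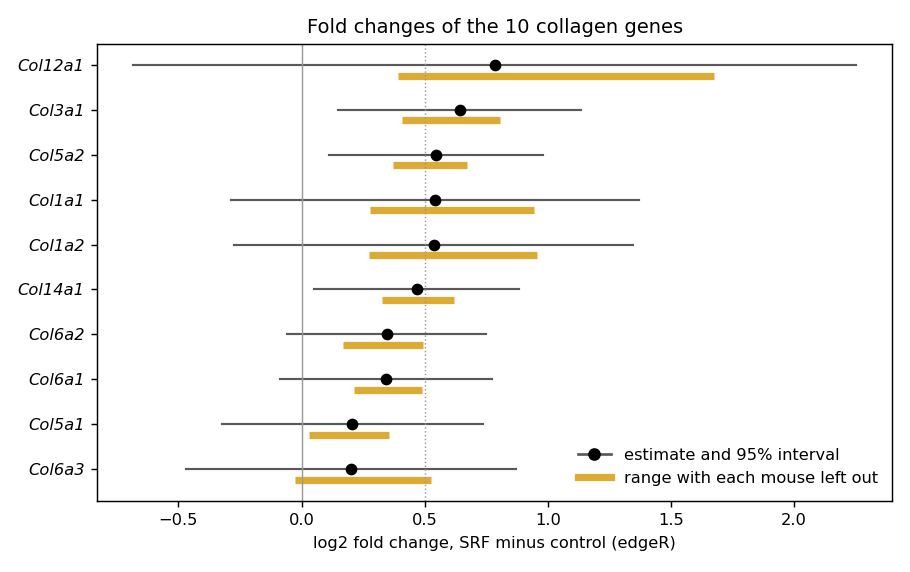
Log2 fold change of each collagen gene (SRF minus control, edgeR) with its 95% interval as a thin line, and below it, as a thick band, the range of the estimate when each mouse in turn was left out. The dotted line marks 0.5. All estimates lie above 0, the intervals of Col3a1, Col5a2 and Col14a1 stay above 0 before any correction over genes, and only the band of Col6a3 reaches below 0.

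The same mice were low or high across the whole group. Control mouse 1 had the lowest level of the 6 libraries in 10 of 10 members, where 19.9% of all tested genes had their lowest level in that library. SRF mouse 2 had the highest level in 8 of 10 members, where 14.1% of all tested genes did. The exceptions were Col6a3, highest in control mouse 3 at 83.6 CPM against 83.3 CPM in SRF mouse 2, and Col12a1, highest in SRF mouse 3. The mean of the members' log2 CPM, centred on the mean of the 6 libraries, was -0.69, -0.22 and 0.16 in control mice 1, 2 and 3 and 0.02, 0.54 and 0.19 in SRF mice 1, 2 and 3. Control mouse 3 thus lay above SRF mouse 1 on this measure, so that the groups overlapped. Without control mouse 1 the median log2 fold change of the members was 0.29, and without control mouse 1 and SRF mouse 3 it was 0.27. With that pair left out, the log2 fold changes were 0.30 in Col1a1, 0.24 in Col1a2, 0.16 in Col6a1, 0.07 in Col6a3 and 0.33 in Col14a1, all smaller than with every mouse. Those of Col5a1 (0.20), Col5a2 (0.54) and Col6a2 (0.43) were close to or above their values with every mouse. A fit with the photoreceptor level as a covariate left the median at 0.50 and called no member.

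Some marker lists moved in part with the members. 11 of 11 tested fibroblast markers had a log2 fold change above 0 (median 0.35). Their summed level was 4322 to 9440 CPM in control mice and 6249 to 10559 CPM in SRF mice, lowest in control mouse 1 as the collagens were. The sum was highest in SRF mouse 3, unlike most members, and control mouse 3 lay above SRF mice 1 and 2. Dcn, the small proteoglycan decorin, made up most of that sum with 2634 to 6346 CPM in control mice. Mfap5, a microfibril protein, had the smallest p of the fibroblast list (log2 fold change 0.45, standard error 0.13, edgeR adjusted p = 0.43), and the list ran from Dpt (0.01) to Pi16 (0.57). The 10 myofibroblast and mural cell markers had a median of 0.06, with 6 above 0. Acta2, the smooth muscle actin of both myofibroblasts and mural cells, was at 473, 541 and 500 CPM in control mice and at 508, 485 and 371 CPM in SRF mice. Its log2 fold change (-0.15, edgeR adjusted p = 0.97) was the lowest of that list. Notch3, a receptor of mural cells, had the highest (0.53, edgeR adjusted p = 0.81). 11 of 12 macrophage markers were above 0 (median 0.81), with summed levels of 1395 to 1824 CPM in control mice and 3241 to 4680 CPM in SRF mice, and DESeq2 called 5 of them (Cd68, Tyrobp, C1qc, C1qb and Lyz2). The list ran from Csf1r (-0.03) to Lyz2, lysozyme (1.49). Among 12 RPE markers 9 were below 0 (median -0.33), from Rrh (-0.77) to Best1 (0.32), and DESeq2 called Rgr, Lrat and Rrh lower. Medians were 0.03 for endothelium, 0.02 for melanocytes, 0.10 for Schwann cells, -0.12 for photoreceptors, 0.37 for skeletal muscle, 0.17 for scleral cartilage and -0.43 for cornea and surface epithelium, none with a called gene. The list labelled scleral cartilage holds genes of cartilage, and the label does not say that the tissue held any. Of its 8 genes 4 were tested, and they summed to 419, 532 and 756 CPM in control mice and to 554, 693 and 724 CPM in SRF mice. Control mouse 3 was the highest and control mouse 1 the lowest in this sum, but the genes were divided. Comp (0.71) and Chad (0.63) had log2 fold changes above 0, and Cnmd (-0.30) and Sox9 (-0.28) below. Sox9 was at 290 CPM in control mouse 1 and at 235 CPM in control mouse 3. The part of each of these cell types in the collagen differences was not tested.

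**Figure D3:**
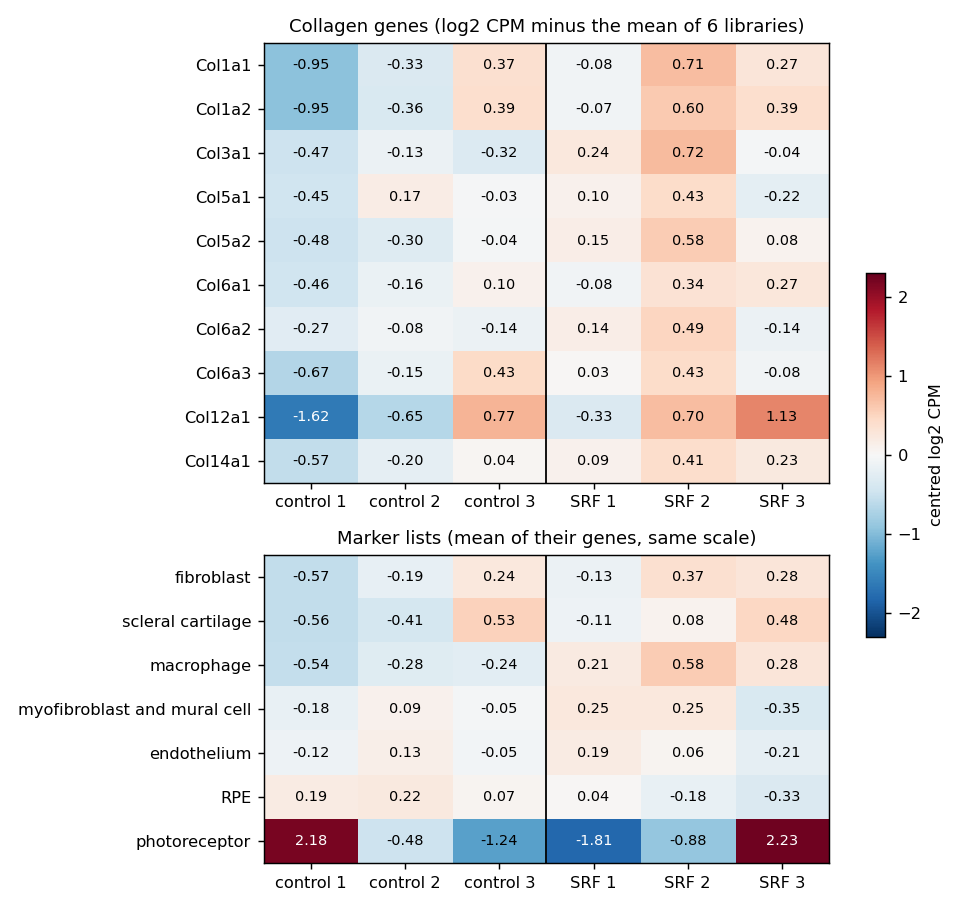
Log2 CPM of each collagen gene (upper panel) and mean log2 CPM of marker lists (lower panel) in the 6 libraries, each centred on its mean over them; red is above and blue below that mean, and the number is printed in each cell. Control mouse 1 is blue for every collagen and for the fibroblast, scleral cartilage and macrophage lists, and photoreceptor markers are high in control mouse 1 and SRF mouse 3.

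Levels between genes can be compared only per length, for which the deposited FPKM values (fragments scaled by the length of the transcript and by the depth of the library) were used. Over the 6 libraries Col1a2 averaged 206 FPKM, Col1a1 200.5 FPKM and Col3a1 121 FPKM. The first pair did not differ beyond its spread, with 95.5 to 315 FPKM for Col1a1 and 98.5 to 301 FPKM for Col1a2. By FPKM, Col1a1 ranked between place 219 and place 924 among all listed genes. The type I and III chains made up 73.3% to 78.1% of the FPKM of the 10 genes in every library. Next came Col12a1 (61.9 FPKM), Col6a1 (36.7 FPKM), Col6a2 (20.4 FPKM) and Col14a1 (19.9 FPKM), and Col5a1, Col5a2 and Col6a3 lay at 9.65, 7.57 and 7.26 FPKM. Dividing counts by FPKM gave the length behind each value. It was 5931 to 5933 bases for Col1a1, whose longest coding transcript has 5930. For Col3a1 it was 2642 to 3217 bases against 5564, for Col5a1 2298 to 2765 against 8406, for Col12a1 3089 to 3585 against 11511 and for Col14a1 3376 to 3667 against 6457. The FPKM of those 4 genes therefore stand on a length that is shorter than the longest coding transcript and that differed between libraries. How the authors set that length is not given in the sources used here. When counts were instead divided by the longest coding transcript, an alternative chosen after seeing the data, Col3a1 averaged 65.4 CPM per kilobase and kept place 3 behind Col1a2 (205.6) and Col1a1 (200.1). Col12a1 (17.2 CPM per kilobase) then fell behind Col6a1 (36.7) and Col6a2 (21), Col14a1 went from 19.9 FPKM to 10.9 CPM per kilobase and kept place 7, and Col5a1 (2.79) became the lowest of the 10. The places of Col12a1 and Col5a1 depend on which transcript is assumed.

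The ratio of Col1a1 to Col1a2, the chains of one helix, was nearly fixed. It was 0.970, 0.990 and 0.959 in control mice and 0.968, 1.05 and 0.897 in SRF mice on the FPKM scale, a 1.17-fold range, while Col1a1 itself covered a 3.16-fold range in CPM. An exact permutation test (two-sided, 3 against 3, smallest possible p 0.1) gave p = 0.9 for SRF against control. Col6a1 to Col6a2 varied more, at 1.57, 1.71 and 2.11 in control mice and 1.54, 1.61 and 2.40 in SRF mice (exact p = 0.9). Col6a3 to Col6a1 was 0.168, 0.193 and 0.248 in control mice and 0.209, 0.206 and 0.159 in SRF mice (exact p = 0.9). Col5a1 to Col5a2 was 1.15, 1.66 and 1.34 in control mice and 1.32, 1.21 and 1.06 in SRF mice (exact p = 0.4), a log2 difference of -0.20. The lengths behind the FPKM of Col5a1 moved between libraries, and on the counts themselves this ratio was 0.481, 0.655 and 0.476 in control mice and 0.458, 0.424 and 0.383 in SRF mice. There the groups did not overlap, with a log2 difference of -0.34 and an exact p = 0.1, the smallest that this test can give with 3 mice a group. With adjustment over the 4 FPKM ratios all p-values were 0.9. No ratio passed the permutation test, which could not have gone under 0.1 in any of them.

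The ratio of type III to type I did not follow the groups. Col3a1 to Col1a1, in CPM per kilobase, was 0.467, 0.384 and 0.207 in control mice and 0.418, 0.337 and 0.270 in SRF mice. Control mice 1 and 3 were the highest and the lowest of all 6, and the SRF values lay between them. Control mouse 3 had type I RNA within the SRF range but type III RNA between the other controls.

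**Figure D4:**
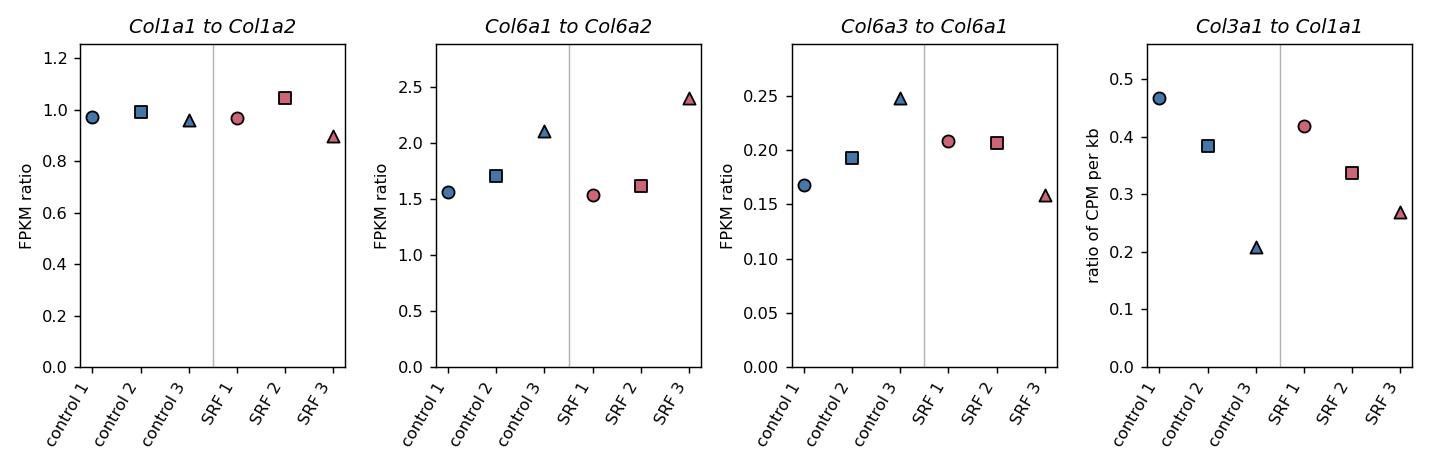
Ratio of collagen chains in each library, as FPKM ratios for Col1a1 to Col1a2, Col6a1 to Col6a2 and Col6a3 to Col6a1 and as a ratio of CPM per kilobase for Col3a1 to Col1a1, with axes from 0. Blue points are control mice and red points SRF mice. The type I ratio stays between 0.897 and 1.05, whereas Col3a1 to Col1a1 runs from 0.207 to 0.467 with SRF mice inside the control range.

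The remaining collagens were read in the same way. All 6 other fibrillar chains had a log2 fold change above 0 (median 0.78) and none was called. Col11a2 had the largest (0.90, standard error 0.42) and Col2a1 the smallest (0.36, standard error 0.47). Col11a2 was at 3.05, 2.66 and 2.09 CPM in control mice and 6.76, 5.18 and 2.58 CPM in SRF mice. Control mouse 1 thus lay above SRF mouse 3. Only SRF mice 1 and 2 had more than 50 counts of Col11a2, so it passed the filter through the group in which it was high. Its part in the count and median above is therefore not independent of the filter. In Col24a1 the groups did not overlap, at 1.64, 2.17 and 3.21 CPM in control mice and 4.11, 5.23 and 3.58 CPM in SRF mice (log2 fold change 0.87, edgeR adjusted p = 0.70). Col5a3, the remaining type V chain, had 0.86 with a standard error of 0.42. Most of these chains were rare, under 20 CPM, apart from Col11a1 at 48.2 to 97.7 CPM. Of the other collagen VI chains only Col6a5 was tested (0.54, standard error 0.33). Among 4 other fibril-associated collagens, Col16a1 had the largest difference (0.50, standard error 0.29) and Col9a1 the smallest (0.02, standard error 0.36), with Col9a3 at 0.07 (standard error 0.25).

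Collagens of basement membranes and other networks were divided. Of 15 tested, 8 had a log2 fold change above 0 and 7 below, with a median of 0.02. Col4a3, a chain of the type IV network, was at 308, 294 and 328 CPM in control mice and 214, 196 and 213 CPM in SRF mice, without overlap (log2 fold change -0.58, standard error 0.11, edgeR adjusted p = 0.24), and DESeq2 called it lower (adjusted p = 0.00012). Its partner Col4a4 had -0.35 (standard error 0.21), whereas Col4a2, of the widespread type IV network, had 0.44 (standard error 0.25). Col10a1, a short-chain network collagen, was at 11.8, 9.06 and 7.34 CPM in control mice and 19.6, 22.7 and 13.2 CPM in SRF mice (log2 fold change 0.98, standard error 0.27, edgeR adjusted p = 0.42, DESeq2 adjusted p = 0.081). The difference between these collagens and the 10 members was not tested, and each list is given by its counts only.

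Among enzymes and chaperones that mature collagen, 25 of 29 tested genes had a log2 fold change above 0 (median 0.19), and none was called by edgeR or DESeq2. At an unadjusted p under 0.05, 5 were higher in SRF and none lower. Lox, the lysyl oxidase that cross-links collagen, had the largest difference. It was at 15.1, 28.5 and 48.9 CPM in control mice and 55.4, 78.2 and 100.5 CPM in SRF mice, and every SRF mouse was above every control (log2 fold change 1.33, standard error 0.42, edgeR adjusted p = 0.52, DESeq2 adjusted p = 0.061). P3h3, of the prolyl 3-hydroxylase family, had 0.54 (standard error 0.17), and Bmp1, which cleaves the C-terminal propeptide of procollagen, had 0.60 (standard error 0.19), both without overlap. Colgalt2, which adds galactose to collagen hydroxylysine, had the lowest value (-0.33, standard error 0.18).

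Proteins that organise fibrils had a log2 fold change above 0 in 16 of 17 genes, with a median of 0.40. Thbs1 (thrombospondin 1) was at 275, 400 and 609 CPM in control mice and 685, 888 and 975.5 CPM in SRF mice (log2 fold change 0.99, standard error 0.29, edgeR adjusted p = 0.47), and DESeq2 called it (adjusted p = 0.048). Aebp1, a collagen-binding protein, was at 82.3 to 117 CPM in control mice and 131 to 161 CPM in SRF mice (0.54, standard error 0.16), and Bgn, the proteoglycan biglycan, had 0.54 (standard error 0.18). Tnxb (tenascin X) was the 1 gene below 0 (-0.05, standard error 0.45). Collagen receptors were above 0 in 9 of 11 genes (median 0.19), from Cspg4 (-0.05) to Lair1 (0.55, standard error 0.22), an inhibitory collagen receptor of leukocytes. The integrin chain Itga2 had 0.54 (standard error 0.23) and Antxr2, a receptor that binds type IV and VI collagen, had 0.40 (standard error 0.25). None of the receptors was called.

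Collagen-degrading proteases were split. Mmp14, the membrane-anchored collagenase, was at 93.9, 115 and 132 CPM in control mice and 164, 210 and 165 CPM in SRF mice (log2 fold change 0.66, standard error 0.17, edgeR adjusted p = 0.41), and DESeq2 called it (adjusted p = 0.0498). Fap, a fibroblast protease that cleaves denatured collagen, was at 154, 157 and 167 CPM in control mice and 119, 106 and 123 CPM in SRF mice (-0.46, standard error 0.11, edgeR adjusted p = 0.37). Its DESeq2 adjusted p was 0.025, but the difference was under the size required for a call. Of 7 proteases tested, 5 were above 0, among them Ctsk, the collagen-cleaving cathepsin K (0.54, standard error 0.36). Among 18 tested regulators of collagen transcription the median was 0.12 with 13 above 0. Cebpb, a transcription factor of inflammatory and acute-phase genes, was at 10.1, 17.4 and 14.5 CPM in control mice and 40.2, 42.4 and 23.0 CPM in SRF mice (log2 fold change 1.33, standard error 0.29, edgeR adjusted p = 0.31, DESeq2 adjusted p = 0.0045). Creb3l1, a factor of the secretory pathway that acts on type I collagen genes, had 0.68 (standard error 0.25). Nfyb, a subunit of the CCAAT-binding factor NF-Y, had -0.26 (standard error 0.13), and Skil, a repressor of TGF-beta signalling, had the lowest value with -0.28 (standard error 0.15). The ligand Tgfb1 was at 2.77 to 3.50 CPM in control mice and 4.06 to 4.96 CPM in SRF mice (0.53, standard error 0.27, edgeR adjusted p = 0.80). The more abundant ligands Tgfb2 (mean 124 CPM in control mice, log2 fold change 0.01) and Tgfb3 (mean 225 CPM in control mice, 0.49, standard error 0.35) overlapped between the groups.

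The 10 tested genes outside the list whose log2 CPM over the 6 libraries was most like the mean of the members were Csf1, Serpinh1, Loxl3, Gypc, Gsn, Mocs1, Ints7, Lpar4, Ptpn6 and Plbd2, with Pearson's r from 0.979 to 0.992 (n = 6 libraries, both groups together). These were picked from all tested genes as the closest over only 6 points, so the values describe likeness only. Serpinh1, the collagen chaperone HSP47 (r = 0.992), was at 193, 237 and 273 CPM in control mice and 269, 323 and 293 CPM in SRF mice, with the same order of libraries as the member mean. Loxl3, another lysyl oxidase (r = 0.988), was at 17.0, 23.4 and 26.5 CPM in control mice and 25.4, 34.6 and 29.8 CPM in SRF mice. Both are also in the list of maturation enzymes and chaperones, and Gsn is among the fibroblast markers.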

How the data were processed

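RNA-seq of RPE-choroid from 3 control and 3 SRF mice was analysed, with groups and mouse numbers from the sample labels. The authors removed low-quality reads with FASTP, counted reads per gene with StringTie and deposited raw counts per gene. FPKM values were deposited beside the counts by the authors. The aligner, genome build, annotation and strandedness are not given in the sources used here. Whether mice are separate litters or cages is not stated, and p-values measure the spread between these animals.

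The 13454 genes whose count passed 50 in 2 or more libraries were fitted with edgeR 4.0.16 (R 4.3.3; TMM, quasi-likelihood test, with the group alone in the model). Benjamini-Hochberg adjustment ran over all of them. Calls needed an adjusted p under 0.05 and a log2 fold change of 0.5 or more in size. CPM are TMM-normalized, and log2 CPM used a prior count of 2. DESeq2 1.42.0 and limma 3.58.1 were alternatives. Library totals set the counting precision, and 3 mice a group limit it further.

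The members and gene lists were chosen with earlier results of these data known. Named were all members and, of each list (of marker lists only in part), the genes with the largest and smallest log2 fold change, any called gene and those with the 3 smallest p-values, plus the 10 genes most correlated with the member mean. A few genes outside that rule (Dcn, Col4a4, Col11a1, Tgfb1, Tgfb2, Tgfb3) were named after their values were seen.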

Additional observations from a re-analysis of the deposited data

How the results depend on the processing

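Each collagen gene was refitted under 25 alternatives, and 248 of the 250 log2 fold changes stayed above 0. The exceptions were Col6a3 without control mouse 1, at -0.027 with edgeR and -0.036 with DESeq2, and with edgeR it ranged from -0.027 to 0.53 over the single mice left out. No edgeR or limma fit called a member. DESeq2 with mice left out, chosen after seeing the data, called 2 members without control mouse 3 (Col1a2 at 0.96 and Col12a1 at 1.68), 1 without SRF mouse 3 (Col3a1 at 0.79) and 1 without control mouse 1 and SRF mouse 3 together (Col3a1 at 0.72). In that order, those fits called 1.01%, 1.66% and 2.3% of tested genes higher in SRF, against 0.803% with every mouse. The cause of these changes was not tested. Over the single mice left out, the median log2 fold change of the members ranged from 0.29 to 0.63 with edgeR. Over all 25 alternatives it ranged from 0.27 to 0.63, and other normalizations moved it from 0.49 to 0.55. With a replicate block on the mouse number the median was 0.51 and 0 members were called. The sources used here describe no pairing of same-numbered mice. Their deviations from the group means correlated at -0.48, 0.49 and -0.30, which cannot show by itself whether mice were paired. DESeq2 called 153 genes over all and edgeR 0. Of the 4 log2 FPKM ratios of chains (SRF minus control), 3 changed sign with single mice left out. They ranged from -0.063 to 0.048 for Col1a1 to Col1a2 (0.0054 without control mouse 2, 0.048 without SRF mouse 3), from -0.18 to 0.15 for Col6a1 to Col6a2 (-0.066, -0.0039 and -0.18 without control mouse 1, control mouse 2 and SRF mouse 3) and from -0.21 to 0.08 for Col6a3 to Col6a1 (0.077 without control mouse 3, 0.052 without SRF mouse 3). Col5a1 to Col5a2 stayed below 0, from -0.32 to -0.06, and was -0.34 as a ratio of counts against -0.20 in FPKM. The median standard error over all tested genes was 0.19. At this depth and number of mice edgeR did not call Col3a1 either (log2 fold change 0.64). The smallest difference that could have been called was not tested.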
